A study of Danio rerio with 32 samples.

Results

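The comparison described here is that of zebrafish larvae without zygotic Adar with their wild-type siblings at 7 days post-fertilization (dpf), and its members are all rows of the authors' 2 deposited gene lists, one of genes with higher and one of genes with lower expression in the mutants. The lists hold 200 genes, 193 higher and 7 lower, or 0.818% of the genes tested, while the tables of the study at another stage, 12 hours post-fertilization (hpf), hold 32519 genes. A gene was listed by the authors when its log2 fold change was beyond 2 in either direction and its adjusted p was under 0.05, so these values chose the genes and are given below as a description.

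The mutants were labelled adar-/- and the siblings WT (ABTL). In the mutant line a few bases of adar were removed with CRISPR/Cas9, so that its reading frame ends early, and by the study's methods the line was kept on the AB background as heterozygotes, whose incross gave the homozygous mutants. Mothers of these larvae carried a working allele of adar, so the mutation takes away the zygotic product and not what the mother supplied. The paper proposes that this maternal pool of Adar is probably lost with time. Whether any of the maternal pool remained in these larvae was not tested. The label ABTL and the AB background of the methods disagree, and the strain of the controls was not resolved here. A strain difference between the groups could not be told apart from the loss of Adar. Each group had 3 libraries of polyadenylated RNA from whole larvae. The methods give 3 individuals for each library, whereas the labels describe pools of embryos for all samples. Where a gene rises in such bulk RNA, more cells of a type and more RNA in each cell cannot be told apart.

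Adar deaminates adenosine to inosine in double-stranded RNA. In mammals, the loss of ADAR1 leaves double-stranded RNA of the cell's own transcripts unedited, and this RNA is bound by sensors such as MDA5 (encoded by ifih1), which signal through interferon regulatory factors to produce type I interferon. Interferon then acts through JAK kinases and STAT transcription factors to raise a large set of interferon-stimulated genes. These encode sensors, GTPases, RNA-binding proteins, the ubiquitin-like protein Isg15 and the machinery that presents antigen.

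The authors' DESeq2 table gave for each gene the mean normalized count over the 6 libraries, the log2 fold change of adar-/- over wild type with its standard error (SE) and the adjusted p. The values of single libraries were not analysed here, so it cannot be said for a gene whether the 2 groups of libraries overlap. A level for each group was therefore computed from the mean normalized count and the fold change, and is called the implied level. Levels are normalized counts that are not divided by gene length, and are compared between the groups of a gene but not between genes. From the ratio of adjusted p to p, the authors adjusted the p-values of 24441 genes together, so that 0.79% of the tested genes were listed as higher and 0.0286% as lower.

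The targeted gene could not be checked in this comparison, since adar is in neither list and no level of it at 7 dpf was analysed here. By qRT-PCR at an earlier larval stage, the paper found no significant change of adar mRNA in the mutants. It also reports that the editing pattern at 7 dpf did not differ significantly between mutants and wild type. On the list of adenosine deaminases and related genes 4 were annotated, adar, adarb2, adad1 and adad2, and 0 of them were listed. The paralogs adarb1a and adarb1b were not among the 4. With 0.818% of the tested genes listed, 0 of 4 is near the background.

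The genes listed as higher rose by a median of 3.38 on the log2 scale, with 2.02 for ftr13 as the lowest value and, among genes above the floor described below, 10.16 for si:dkey-211g8.8 as the highest, and 123 of the 193 rose by more than 3. The median SE was 0.49. For 123 of the 193 genes the lower 95% limit of the log2 fold change was also above 2, and for the other genes the interval reached below the limit by which they were listed. In wild-type larvae 74 of these genes had an implied level under 10 normalized counts per library, and 39 of the 74 were above 100 in the mutants. The fitted values of genes with hardly any reads in 1 group depend on how the fit treats them. In 10 genes the wild-type level was below a floor of 3 normalized counts over the 3 libraries. Their fold changes are given as the implied mutant level against this floor. They are not lower confidence limits, and for ccl19a.2, given below as 30.7-fold, the lower 95% limit of the log2 fold change was 2.84. The coefficient of variation between libraries that the fitted SE implied had a median of 32.0% over the 189 genes for which it could be computed.

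The ranks of the listed genes among all p-values are a description only, since the adjusted p helped to choose these genes. The 36 smallest p-values of the 24441 all belonged to listed genes. So did 91 of the smallest 100, 147 of the smallest 200 and 189 of the smallest 400. The largest rank of a listed gene was 467, which means that at least 467 genes, or 1.91% of those tested, had an adjusted p at or under 0.0400 of which 267 are in neither list, as genes with a fold change within the limits would be. Just inside the fold limit were ftr13 (2.02), a copy of si:dkey-40c23.2 (2.05), si:ch211-245h14.1 (2.05), si:dkey-27p18.7 (2.07) and igfn1.2 (2.08). Just inside the limit on the adjusted p were CT583625.5 (0.0400), igfn1.2 (0.0387), ly6m3 (0.0377), tor1l2 (0.0358) and cxcl18b (0.0331). No gene is listed from outside these limits.

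**Figure D1:**
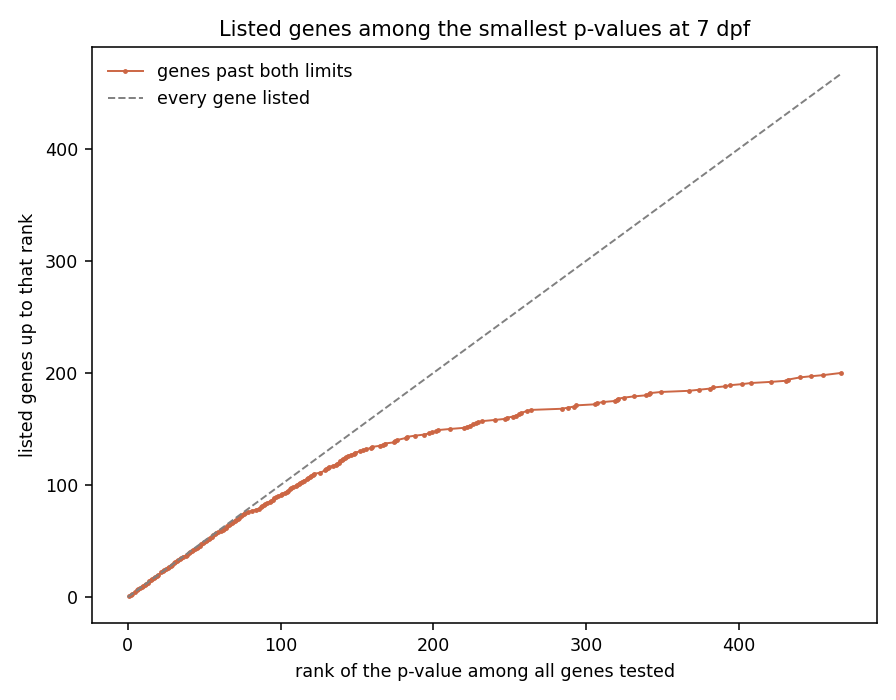
Listed genes among the smallest p-values at 7 dpf. The x axis is the rank of a gene's p-value among all 24441 genes tested and the y axis is the number of listed genes up to that rank. The dashed line is where every gene would be listed, and the curve leaves it after rank 36 and ends at 200 listed genes at rank 467.

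Interferon and the factors that act before and after its receptor were among the listed genes. The type I interferon gene ifnphi1 had an implied level of 3.20 normalized counts in wild type and 42.4 in adar-/-, a log2 fold change of 3.73 (SE 0.71). The transcription factors that drive interferon production in fish and mammals were higher as well, irf7 from 102 to 4092 (log2 fold change 5.32, SE 0.62) and irf3 from 44.3 to 467 (3.40, SE 0.27), and the related factor irf10 rose from 30.5 to 230.4 (2.92, SE 0.37). Of the STAT factors that carry the interferon signal to the nucleus, stat1b rose from 63.3 to 3794 (5.91, SE 0.28) and stat2 from 575 to 3045 (2.41, SE 0.16). The 95% intervals of the stat1b and stat2 changes did not overlap. On the fixed lists, 1 of 9 annotated interferons and receptors and 3 of 11 interferon regulatory factors were listed as higher. So were 2 of 12 JAK and STAT genes, and none of these genes was listed as lower. Of all tested genes 0.79% were listed as higher. These lists and those below were written with earlier results known, so the shares from them are a description only. The other interferons (ifnphi2, ifnphi3, ifnphi4 and the gamma interferon ifng1), the receptor chains, the kinases jak1 and tyk2 and irf9 are in neither list, which shows only that they did not pass both limits.

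Sensors of foreign nucleic acid formed a group of 4 listed genes, with a median log2 fold change of 4.80. The gene of the helicase Lgp2, dhx58, rose from 54.2 to 2485 (5.52, SE 0.27). The gene of the sensor Mda5, ifih1, rose from 94.8 to 421 (2.15, SE 0.26), close to the limit for being listed, and its interval lay wholly below that of dhx58. Pkz, a fish kinase related to PKR that binds Z-form nucleic acid through a domain type also found in ADAR1, had a rise of pkz from 26.9 to 932 (5.12, SE 0.32). The DNA sensor gene cgas rose from 10.2 to 229 with a wider error (4.49, SE 1.01). These 4 were the members listed of 15 annotated genes on the sensing list, beside 0.79% of all tested genes listed as higher. The adaptor genes mavs and sting1, the kinase genes tbk1 and eif2ak2 and the Toll-like receptor genes tlr3, tlr7 and tlr9 of that list did not pass both limits.

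Among the named families the antiviral effectors had the largest median changes. All 7 ifit genes listed, which encode proteins that bind viral RNA ends in mammals, had a median log2 fold change of 8.27, and they are 7 of 8 annotated ifit genes. Of all tested genes, 0.79% were listed as higher. The implied level of ifit14 was 2.84 in wild type and 1275 in the mutants (8.81, SE 0.51), that of ifit15 was 3.47 and 1072 (8.27, SE 0.46), and that of ifit10 was 1.27 and 430.3 (8.41, SE 0.84). In wild type ifit8 was below the floor, and with 851 in the mutants it was 851-fold higher against the floor. The lowest change of the group was that of ifit12, from 9.23 to 57.8 (2.65, SE 0.56). The genes ifit9 (6.67) and ifit16 (6.27) lay between. The SE-implied coefficient of variation was 9.39% for ifit14, the lowest of the 189 genes, and is what remains once counting error is taken off. At a wild-type level of 2.84 that error makes up most of the SE, so the value cannot show that ifit14 varied least.

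Mx proteins are large GTPases that block virus replication, and 3 of 7 annotated mx genes were listed. They were mxe (from 3.47 to 1392, log2 fold change 8.65, SE 0.53), mxb (from 4.12 to 1199, 8.19, SE 0.91) and mxa (from 6.63 to 834, 6.97, SE 0.63). The radical SAM enzyme viperin, encoded by rsad2, makes a chain-terminating nucleotide, and the kinase Cmpk2 supplies its substrate. Their genes are neighbours on chromosome 17, and rsad2 rose from 14.9 to 3185 (7.74, SE 0.53) and cmpk2 from 5.78 to 932 (7.33, SE 0.59), changes that differed by less than 1 SE. Of 18 annotated genes on the list of Mx, ifit and viperin effectors, 12 were listed as higher, beside 0.79% of all tested genes. The genes mxc, mxd, mxf, mxg, ifit11 and isg20 were not listed.

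**Figure D2:**
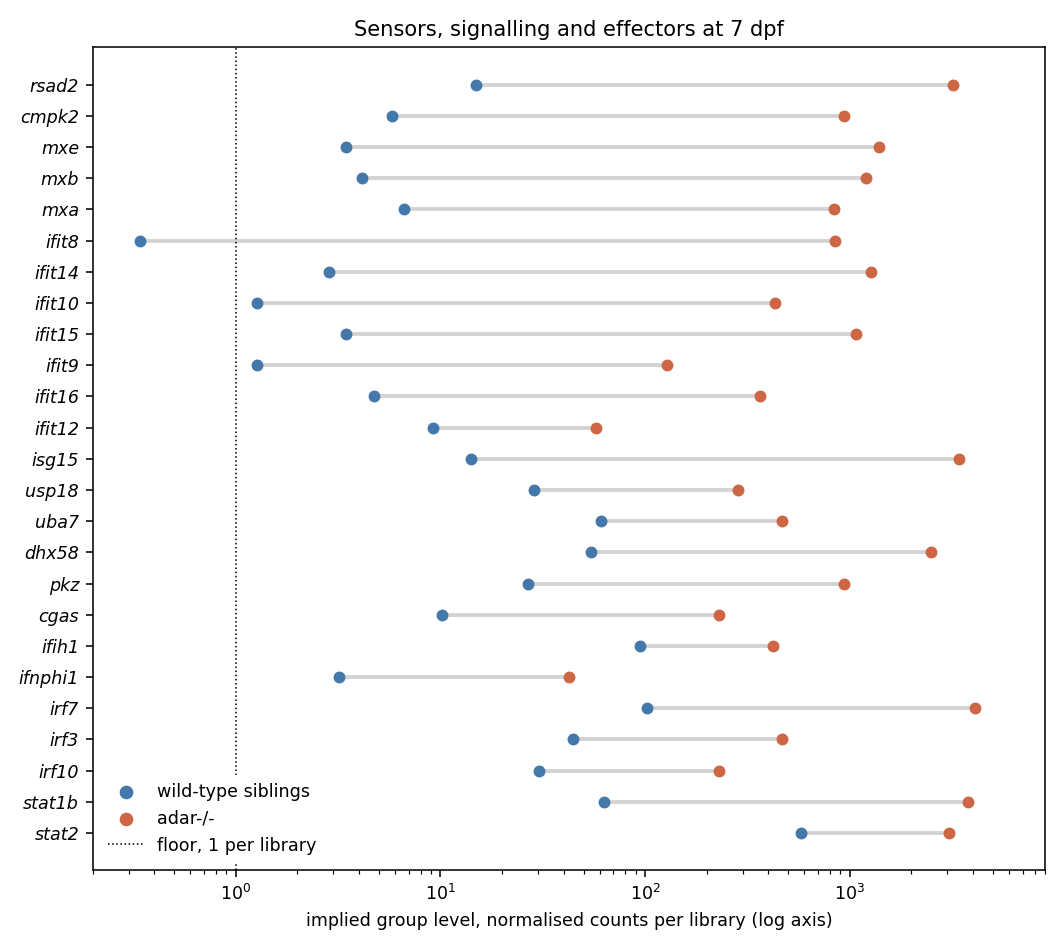
Implied levels of sensor, signalling and effector genes at 7 dpf. Each row is a gene, the x axis is normalized counts per library on a log axis, blue points are wild-type siblings, orange points are adar-/- larvae, and the dotted line is the floor of 1 normalized count per library. Every mutant level is to the right of the wild-type level. The widest gaps are in the mx, rsad2, cmpk2, isg15 and ifit rows, except ifit12, whose gap is among the narrow ones. The wild-type level of ifit8 is left of the floor.

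Isg15 is a ubiquitin-like protein that is joined to target proteins by its own set of enzymes. On the list of its pathway 5 of 5 annotated genes were listed as higher, beside 0.79% of all tested genes. This list was also written with earlier results known, so the share is a description only. The modifier gene isg15 rose from 14.03 to 3426 (7.93, SE 0.52). The activating enzyme gene uba7 rose less, from 60.9 to 467 (2.94, SE 0.36), as did usp18, whose product removes Isg15 and in mammals restrains the interferon receptor, from 28.8 to 285 (3.31, SE 0.28). The herc56 genes are named after HERC5 and HERC6, and HERC5 is the main ligase of ISG15 in humans. The files list 4 genes whose current symbols are herc56.1 to herc56.4, under the older symbols si:ch73-190m4.1, si:ch211-281g13.4, slc47a2.2 and si:ch211-281g13.5. These are all 4 annotated herc56 genes, and their log2 fold changes ran from 6.10 to 7.25. The symbol slc47a2.2 names a transporter in the deposited list, and its deposited and current names disagree.

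RNA helicases and related proteins contributed 5 genes with a median log2 fold change of 4.71. The helicase gene helz2 rose from 65.3 to 2749 (5.40, SE 0.24) and znfx1, which in mammals binds viral double-stranded RNA, from 89.5 to 2338 (4.71, SE 0.22). The neighbouring genes mov10b.1 and mov10b.2, relatives of a mammalian helicase that restrains retroelements, rose by different amounts, mov10b.1 from 210.9 to 3084 (3.87, SE 0.22) and mov10b.2 from 6.71 to 418 (5.96, SE 0.41). The zinc finger gene zc3h7ba was near the limit (2.13, SE 0.24). Gig2 genes were first found in fish cells exposed to a reovirus. Beside 0.79% of all tested genes listed as higher, 4 of 12 annotated gig2 genes were. Of these gig2e rose from 56.8 to 1255 (4.47, SE 0.20), gig2o rose by 2.41, gig2p by 2.21, and gig2d by 4.66 with an SE of 1.03.

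Several families of ubiquitin ligases and ADP-ribosyl transferases were listed with smaller changes. The TRIM group was the largest named family, with 24 gene IDs and a median log2 fold change of 2.94. Most of it were finTRIM genes, a group of TRIM ligases that has expanded in fish. Where 0.79% of all tested genes were listed as higher, 18 of 74 annotated ftr genes and 2 of 22 annotated btr genes were. Within the group, ftr72 rose from 26.8 to 700 (4.71, SE 0.30), ftr56 from 70.6 to 512 (2.86, SE 0.35), ftr11 from 1.55 to 192 (6.95, SE 1.07) and ftr80 from 2.22 to 177 (6.32, SE 0.70), whereas ftr14 (2.08) and ftr13 (2.02) were at the limit. The largest estimate was that of BX769173.3, now named ftr42, whose wild-type level was below the floor and whose mutant level was 166-fold higher against the floor. The symbol ftr50 stood for 4 gene IDs with mean normalized counts under 30, of which 3 rose by 2.22 to 2.64. The fourth, below the floor in wild type, was 15.3-fold higher against the floor. Since reads may be split among such near-identical copies, these 4 values are uncertain. The gene trim25, whose mammalian product activates the sensor RIG-I, rose from 377 to 1892 (2.33, SE 0.21).

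Rnf213 proteins are very large ubiquitin ligases, and rnf213b rose from 31.3 to 1588 (5.66, SE 0.25), more than rnf213a, from 575 to 3806 (2.73, SE 0.25), and CABZ01058333.1, from 12.2 to 68.9 (2.50, SE 0.56). Among the 5 PARP genes, FO744833.2, described as parp14, rose from 383 to 1808 (2.24, SE 0.22), parp12a from 95.2 to 820 (3.11, SE 0.28), CABZ01085275.1 from 29.0 to 299.9 (3.37, SE 0.29) and parp11 from 6.93 to 125 (4.17, SE 0.45). The fifth, FO744833.1, described as parp14-like, rose by 2.98. The immunity-related GTPase gene irge4 rose from 13.3 to 249 (4.22, SE 0.42), and was the only 1 listed of 8 annotated irg genes. Of other GTPase genes, nuggc.1, nuggc.2 and nuggc.3, all 3 annotated nuggc genes, rose by 4.18, 4.11 and 4.72. Their lower 95% limits were 2.11, 2.55 and 2.54. Beside the counts of irg and nuggc genes, 0.79% of all tested genes were listed as higher.

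Genes of antigen presentation were listed with changes nearer to the limit, at a median of 2.39. In mammals interferon replaces the catalytic subunits of the proteasome by inducible ones that favour peptides for class I molecules. The inducible subunit genes psmb8a (from 32.7 to 141, log2 fold change 2.11, SE 0.47), psmb12 (from 16.4 to 75.6, 2.20, SE 0.50) and psmb13a (from 9.54 to 99.0, 3.37, SE 0.59), the peptide transporter gene tap2a (from 10.02 to 96.2, 3.26, SE 0.57) and the class I light chain gene b2m (from 99.6 to 522, 2.39, SE 0.67) were listed. For psmb8a, psmb12 and b2m the 95% interval reached below 2. These were 5 of 13 annotated genes on the list of immunoproteasome and class I genes, beside 0.79% of all tested genes listed as higher. None of the 7 constitutive catalytic and structural beta subunit genes, psmb1 to psmb7, was listed. With 0.818% of the tested genes listed, 0 of 7 is near the background.

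Chemokines, which attract leukocytes, were represented by 5 genes. The genes ccl19a.1 and ccl19a.2 lie side by side on chromosome 5, and ccl19a.1 rose from 159.6 to 792 (2.31, SE 0.28). In wild type ccl19a.2 was below the floor, and in the mutants it was 30.7-fold higher against the floor. The neutrophil attractant gene cxcl18b rose from 69.5 to 345 with an adjusted p of 0.0331 (2.31, SE 0.67), CR762483.1 from 21.6 to 178 (3.04, SE 0.81), and BX323596.2, now cxcl11.3, by 4.48 (SE 0.75). On the list of inflammatory cytokines and chemokines 3 of 18 annotated genes were listed as higher, where 0.79% of all tested genes were. That list, like the others, was written with earlier results known, so these shares are a description only. The genes il1b, tnfa, il6, il10 and cxcl8a did not pass both limits.

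Of the genes tied to cell death, xaf1, whose product binds the caspase inhibitor XIAP in mammals, rose from 67.8 to 938 (3.79, SE 0.49), and the death receptor gene fas from 30.0 to 200.9 (2.74, SE 0.36). The caspase genes casp23 (2.52, SE 0.54) and casp21 (2.44, SE 0.45) rose as well, with intervals that reached below 2. The genes bax, bbc3, pmaip1 and gsdmea, which encode other proteins of cell death, did not pass both limits. The stress-induced gene sesn2 rose from 100.3 to 489 (2.29, SE 0.34). On the list of the integrated stress response, which eIF2α kinases such as Pkz can trigger, 1 of 15 annotated genes was listed, again sesn2. Of all tested genes 0.79% were listed as higher, and from 1 gene nothing is read about this response. The genes atf3, atf4a, ddit3 and asns of the list did not pass both limits.

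Other named members had mixed roles. The galectin gene lgals17, also named igldcp, had one of the largest changes, from 5.99 to 4041 (9.40, SE 0.60). The genes lgals3bpb and lgals3bpa, which encode secreted glycoproteins that bind galectins, rose from 245 to 1405 (2.52, SE 0.53) and from 18.8 to 727 (5.28, lower 95% limit 3.12). The gene tdp2a, whose mammalian counterpart repairs DNA ends blocked by topoisomerase, rose from 3.48 to 358 (6.68, SE 0.55). The mitochondrial protein gene ociad2 rose from 424 to 1975 (2.22, SE 0.22), and ogfrl2 from 120.1 to 1697 with a wide error (3.82, SE 1.03). The cyp2aa genes encode cytochrome P450 enzymes, and cyp2aa7 (from 304 to 1755, 2.53, SE 0.22), cyp2aa4 (2.10, SE 0.47) and cyp2aa11 (2.15, SE 0.59), 3 of 9 annotated members that lie next to each other on chromosome 23, were all near the limit. Of all tested genes, 0.79% were listed as higher.

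**Figure D3:**
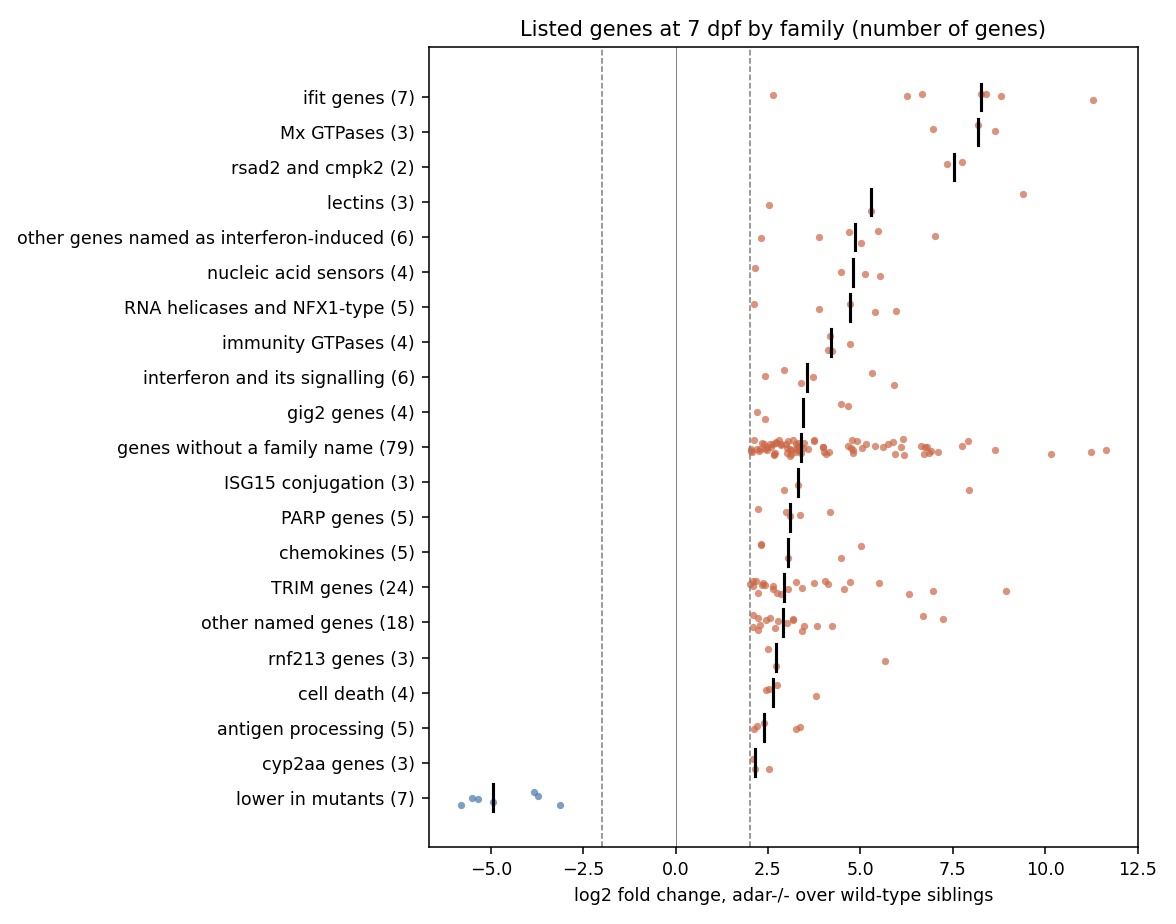
Log2 fold changes of all 200 listed genes by family. The x axis is the log2 fold change of adar-/- over wild-type siblings, each point is a gene, black bars are family medians, numbers in brackets are genes, and dashed lines are the limits of -2 and 2 by which genes were listed. The ifit genes (median 8.27) and Mx GTPases (8.19) are farthest to the right, the antigen processing (2.39) and cyp2aa genes (2.15) are near the limit, and the 7 lower genes have a median of -4.94, or -3.84 with aste1a set against the floor.

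A large share of the list had no family name in the deposited symbols or descriptions. These were 79 genes, 40.9% of those higher, with a median log2 fold change of 3.38. The gene IDs of 27 of them carry an informative current symbol in a table of gene names. Regrouped by current symbols, which was done after the values were seen, 7 of 8 annotated ifi27 genes were listed, with log2 fold changes of 3.03 to 7.92. These genes encode small membrane proteins that interferon induces in vertebrates, and ifi27.2 (deposited as zgc:152791) rose from 21.6 to 5207 (7.92, SE 0.51) and ifi27.1 (ifi45) from 118 to 3811 (5.01, SE 0.46). The genes ifi46 (from 71.2 to 1838, 4.69, SE 0.28) and si:dkey-188i13.6 (from 89.2 to 1413, 3.99, SE 0.49) are now ifi27.4 and ifi27.3. Of the ifi44 genes, which encode another interferon-induced group, 8 of 14 annotated ones were listed, with changes of 2.25 to 5.39. Beside the counts of ifi27 and ifi44 genes, 0.79% of all tested genes were listed as higher. CABZ01073795.1, described as an interferon-induced protein 44, rose from 29.1 to 1304 (5.49, SE 0.77). CABZ01000634.1, with the same description, was below the floor in wild type and 22.7-fold higher against the floor in the mutants. The gene ifi35 rose from 134 to 666 (2.31, SE 0.28) and FO704622.1 from 31.8 to 468 (3.88, SE 0.25). After the regrouping 53 genes had no family name, among them ascl1b, whose current symbol is si:ch211-210p4.6.

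Among these were some of the most firmly measured and the largest changes of the comparison. The smallest p-value of all tested genes was that of wu:fj29h11, which rose from 307 to 8475 (4.79, SE 0.15, adjusted p 3.63e-214), and the next was that of CU984600.2, from 46.6 to 6419 (7.10, SE 0.26, adjusted p 1.72e-164). The genes with the highest mean normalized count of the list, CR318588.3 and CR318588.1, share a clone name and are long non-coding RNA genes in RefSeq, both on chromosome 18. CR318588.3 rose from 1494 to 15539 (3.38, SE 0.24) and CR318588.1 from 41.0 to 16314 (8.64, SE 0.76). Of the 166 higher genes that matched a RefSeq gene, 4 were long non-coding RNA genes and 162 were protein-coding. Among the 4 is the gene deposited as c1s, the name of a complement protease, so its name and RefSeq type disagree. CABZ01109021.1 rose from 119 to 3543 (4.90, SE 0.25), and si:dkey-211g8.8 from 1.89 to 2153 (10.16, SE 1.02). In wild type si:ch211-276k2.1 and CR846090.1 were below the floor, and in the mutants they were 557-fold and 420-fold higher against the floor.

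Many of the listed genes lie beside one another. In the RefSeq annotation of GRCz12tu, used only for chromosomes and for the order of genes, 168 of the 200 gene IDs matched 164 protein-coding genes of 27039. Of these, 74 (45.1%) lay within 5 genes of another listed gene, in 26 runs. Many of the runs hold genes of a single family, and the share expected for 164 genes was not computed. The longest run was that of 6 adjacent ifi27 genes on chromosome 13. Other runs were ifit12, ifit10 and ifit9 on chromosome 12, ifit16, ifit15, ifit14 and fas on chromosome 17, psmb8a, psmb13a, psmb12 and tap2a on chromosome 19, 4 ifi44a genes and 3 herc56 genes on chromosome 1, and ftr90, ftr73, ftr72 and ftr91 on chromosome 15. Neighbours need not have changed alike. In the run with fas (2.74) the ifit genes changed by 6.27 to 8.81, and ifit12 (2.65) lay within 5 genes of ifit10 (8.41).

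Markers of single cell types were absent from both lists. None of 48 annotated genes on 9 lists, for macrophages, neutrophils, lymphocytes, erythrocytes, liver, gut, muscle, neurons and skin, was listed. This holds for the macrophage markers csf1ra and marco, the neutrophil markers lyz and npsn and the lymphocyte markers rag1 and lck. With 0.818% of the tested genes listed, 0 of 48 is near the background. Changes within the limits of fold and p would not be seen in this way, and the level of these markers at 7 dpf was not analysed here.

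The 7 gene IDs with lower expression in adar-/- all had 95% intervals wholly beyond -2. Both IDs that carry the symbol zgc:162509 fell, from 902 to 29.4 (log2 fold change -4.94, SE 0.61) and, for the ID now named si:dkey-85k15.7, from 471 to 11.7 (-5.34, SE 0.84). The gene zgc:92590 fell from 216 to 3.84 (-5.81, SE 0.50, adjusted p 2.83e-28). si:dkey-85k15.6 fell from 80.5 to 5.61 (-3.84, SE 0.52), si:dkey-85k15.4 from 76.4 to 5.78 (-3.72, SE 0.53) and si:dkey-17m8.2 from 59.8 to 6.90 (-3.12, SE 0.47). The gene aste1a had few reads, with an implied level of 8.53 in wild type and one below the floor in the mutants. Against the floor it was 8.53-fold lower, with an adjusted p of 0.0189. The files give no function for the other genes of this list.

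The lower genes shared a chromosome with adar. Of the 7 IDs, 6 matched 5 RefSeq genes, and these were all on chromosome 16, which holds adar and 1154 (4.27%) of the 27039 protein-coding genes. si:dkey-85k15.4, zgc:162509 and si:dkey-85k15.6 are consecutive genes there, and the 5 genes lie 51 to 442 protein-coding genes away from adar. si:dkey-17m8.2 was not placed. Of the 162 placed higher genes 3 (1.85%) were on chromosome 16, namely irge4, tdp2a and LO017815.1. The higher gene c1s matched a long non-coding RNA gene on chromosome 16 and is not counted, since only protein-coding genes were placed. Larvae sorted by their adar genotype also differ in the alleles linked to adar, and for genes on this chromosome the loss of Adar and the linked alleles cannot be told apart in this design. Since 2 IDs carry the symbol zgc:162509, their reads may be split between copies and both values are uncertain.

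**Figure D4:**
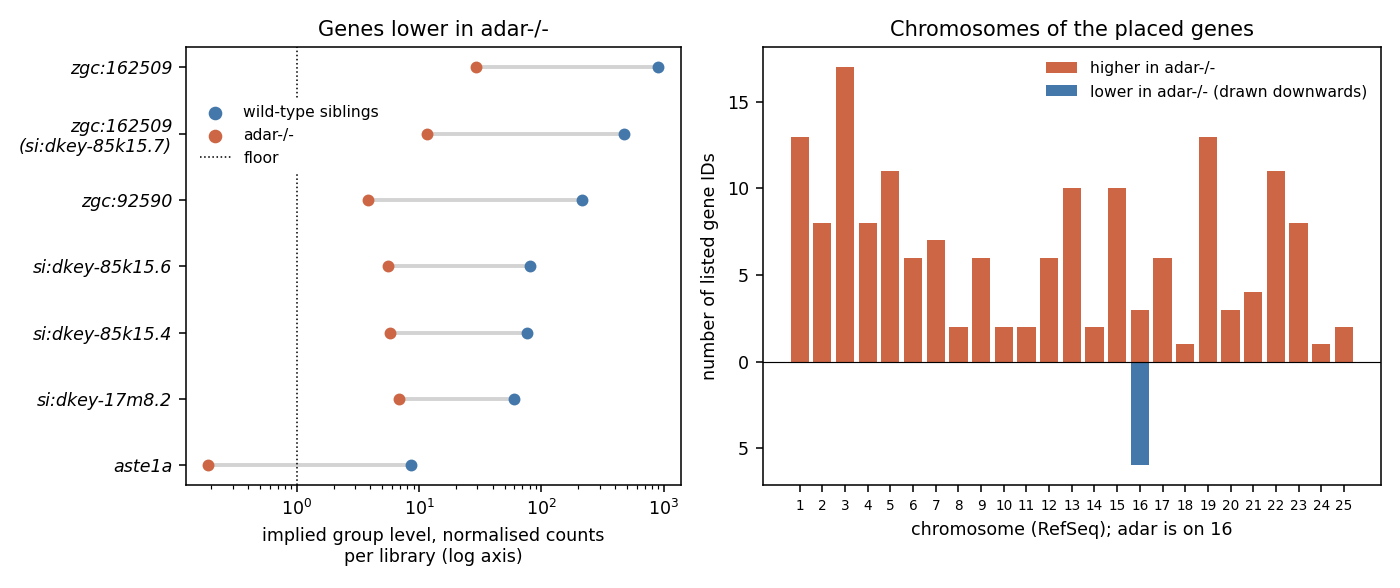
Genes lower in adar-/- and the chromosomes of listed genes. Left, implied levels of the 7 lower gene IDs in normalized counts per library on a log axis, with wild-type siblings in blue, adar-/- larvae in orange and the floor dotted. Right, listed gene IDs placed on each RefSeq chromosome, with higher genes drawn upwards and lower genes downwards from 0. Only matches to protein-coding genes are placed. All 6 placed lower IDs are on chromosome 16, with adar, where 3 higher genes were placed.

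The same genes were looked up in embryos of an earlier stage with less or more Adar, which had no part in choosing them. At 12 hpf the study compared uninjected wild-type embryos with embryos injected with 1 ng of adar morpholino (KD) or 50 pg of adar mRNA (OE), with 3 libraries of pooled embryos in each group and rRNA-depleted RNA. KD and OE share their control libraries. The level of adar itself was not called in either comparison, with a log2 fold change of -0.59 (SE 0.47, adjusted p 0.549) in KD and 0.64 (SE 0.96, adjusted p 0.655) in OE. By the paper's methods the morpholino blocks translation, so the level of adar RNA is no check of the knockdown.

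At this stage the listed genes had low counts. Among listed genes with a p the mean normalized count had a median of 1.6 in the KD table and 2.78 in the OE table, and over all genes with a p it was 4.47 and 5.85. A count of 10 was reached by 9.33% and 10.6% of these listed genes, and by 33.8% and 36.3% of all genes. In KD 37 of the 200 had an adjusted p and 0 were called at an adjusted p under 0.05 by DESeq2, where 6.2% of all 13333 genes with an adjusted p were. At an unadjusted p under 0.05 there were 13 of 193 listed genes (6.74%) and 3072 of 28949 genes in all (10.6%). Among genes with a mean normalized count under 10 there were 11 of 175 listed genes (6.29%) and 1095 of 19160 in all (5.72%). Of the genes for interferon signalling, irf7 had a log2 fold change of -1.41 (adjusted p 0.280) and ifih1 one of 1.16 (adjusted p 0.379). For most of the others, isg15, rsad2 and ifnphi1 included, the table gives no adjusted p. Of the 13 listed genes with an unadjusted p under 0.05, 11 were higher in KD and 2 lower. The 11 higher ones include ifit8 (unadjusted p 0.00186), irf3 (0.0142), isg15 (0.0161) and dhx58 (0.0358), chosen after their values were seen, at mean normalized counts of 1.95 to 3.73.

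In OE 157 of the 200 genes had an adjusted p, 35 (22.3%) were called higher and 1 lower. Of all 24189 genes with an adjusted p 14.2% were called higher and 6.73% lower, and among the 13299 with a mean normalized count under 10 these shares were 15.8% and 0.135%. Of the listed genes with so low a count, 29 of 136 (21.3%) were called higher. The fold changes of such genes rest on a few reads in 1 group, and the part of this trend with expression in the calls was not tested. Over all genes the log2 fold change had a median of 0.90 in OE, and 1.66 for counts under 10, and for the listed genes the medians were 2.13 and 2.32. Of the 21 listed genes with a mean normalized count of 10 or more, 7 (33.3%) were called, 6 higher and 1 lower, where 27% of all 10890 such genes were called, 12.2% higher and 14.8% lower. These were rnf213a (1.48, SE 0.45), rnf213b (2.02, SE 0.62), CU984600.2 (2.53, SE 0.69), FO744833.2 (2.00, SE 0.64), si:dkey-97a13.6, now helz2b (2.40, SE 0.73), and ociad2 (2.10, SE 0.76), all higher, and si:ch211-199g17.2 (-1.52, SE 0.48), which was lower. In KD the values of these genes ran from -1.36 for si:ch211-199g17.2 (adjusted p 0.0821) to 1.58 for si:dkey-97a13.6 (adjusted p 0.399). Of the 7 lower IDs at 7 dpf, 6 had an adjusted p in OE and 3 were called higher, both IDs of zgc:162509 and si:dkey-85k15.6. Their mean normalized counts were 3.07 to 4.30, and 15.8% of all genes with a count under 10 were called higher. These IDs match adjacent genes, and reads may be split between the copies of zgc:162509, so they are not separate observations.

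**Figure D5:**
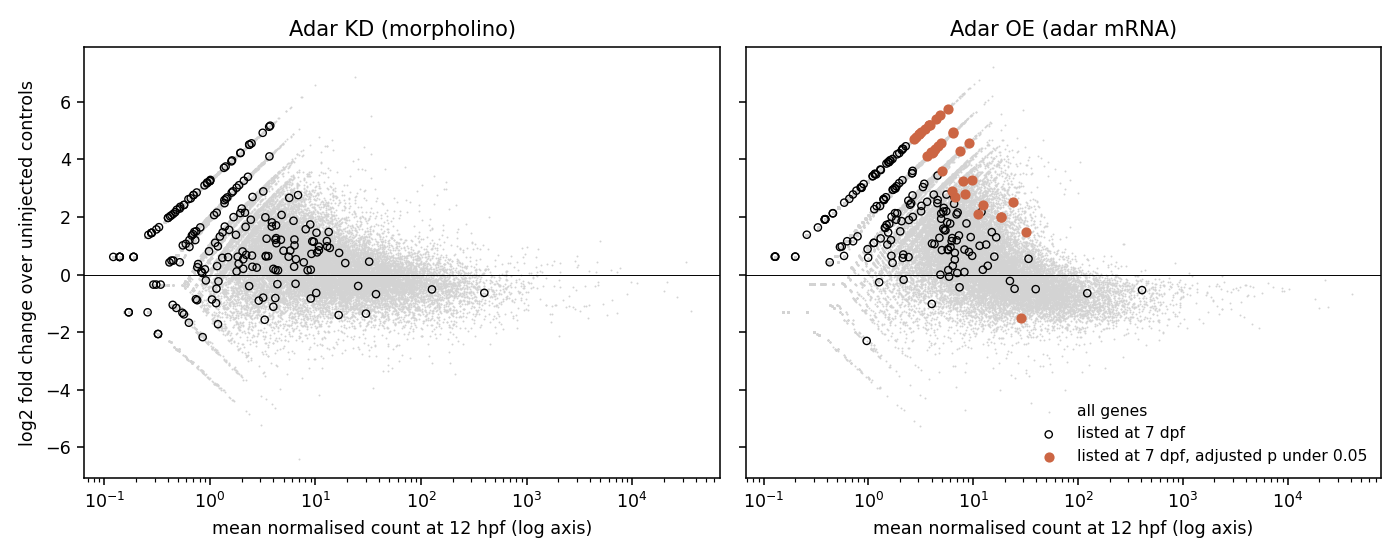
The listed genes at 12 hpf. The x axis is the mean normalized count on a log axis and the y axis the log2 fold change over uninjected controls, for Adar KD on the left and Adar OE on the right. Grey points are all genes, open circles are the genes listed at 7 dpf, and filled circles are those with an adjusted p under 0.05, of which there are 0 in KD and 36 in OE. Most listed genes lie left of a mean normalized count of 10, where the grey points of OE are shifted upwards.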

How the data were processed

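Whole adar-/- larvae and wild-type siblings at 7 dpf were measured in 3 libraries each. The authors trimmed reads with fastp, aligned them to GRCz11 with STAR 2.7.7a, removed duplicates with SAMtools, counted genes of annotation z11.105 with HTSeq for the reverse strand and fitted DESeq2. The 12 hpf reads were aligned by the authors to GRCz10. The deposited values used are the mean normalized count and Wald statistic (scores), the log2 fold change with its SE, and the p-value with its Benjamini-Hochberg adjusted p-value. At 7 dpf only genes past both limits of the authors are in these tables, so no enrichment was computed. Counts of single libraries were not used, and the depth of each library is unknown here. The groups' levels follow from the mean normalized count B and the log2 fold change L as 2B/(1 + 2 to the power L) in wild type. The 95% limits use the normal distribution. The number of genes tested is the smallest for which the ratios of adjusted p to p give whole ranks, which 96.5% of the rows did within a relative tolerance of 1e-06, and the arithmetic was tested on simulated data. Calculations used pandas 2.3.3 and scipy 1.17.1 under Python 3.11.15 (numpy 2.4.6), and plots matplotlib 3.10.9. Replicates are separate pools by the methods.

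Genes were grouped by symbol and description into 18 families. The named genes are the lower list, in each family those with the highest counts and the largest changes, the listed genes of 21 fixed gene lists, the 10 highest counts outside the families and those nearest the limits. Other genes were named after their values were seen. The members, families and lists were chosen with earlier results of these data known. The count over the list of caspases and related targets is not reported here.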

Additional observations from a re-analysis of the deposited data

How the results depend on the processing

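Of the 193 higher and 7 lower genes, 177 and 6 remained at an adjusted p under 0.01 and 161 and 6 at one under 0.001. With the whole 95% interval beyond the fold limit there were 123 higher and 7 lower genes, and where the mean normalized count was 50 or more there were 152 and 3. With a floor of 10 instead of 3 normalized counts over the 3 libraries, 31 instead of 10 higher genes were below it in wild type. Against the floor the median log2 fold change of the lower genes was -3.84 instead of -4.94. Families by symbol alone held 85 genes instead of 96, and families by current symbol, an alternative chosen after seeing the data, held 116. Adjacent genes gave 60 listed neighbours, and genes within 10 gave 79, instead of 74. At 12 hpf the members called in OE went from 36 to 12 at an adjusted p under 0.01. They went to 7 when p-values were adjusted over genes whose mean normalized count was 10 or more. That setting leaves out the 29 of the 36 with a lower count, and 7 with such a count were called in the main run too. In KD 0 were called under each setting. No cause beyond this was tested. No paired analysis was possible because the tables used hold no values of single libraries, and for the same reason no library could be left out. The share of promoters with an interferon response motif was not computed, since promoter sequences were not used here.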
